A study of Mus musculus with 15 samples.

Results

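Octanal and cis-3-hexenol were given to mice from 1 shared filter paper or from 2 separate papers, and the ribosome-bound RNA of the activated cells of the olfactory epithelium was compared between these arrangements over all genes. The members are 6 libraries of the 15 in the series, the 3 labelled O+C and the 3 labelled O&C, taken by their labels. In the O+C group both odorants were put on the same paper, 10 µL of each, so that the liquids met before they evaporated. In the O&C group the same volumes were put on 2 papers about 1 mm apart, so that the odorants met in the air. The Control group received empty papers, and the A+D and A&D groups received acetophenone and decanal in the same arrangements. All groups were wild-type C57BL/6J males, 8 weeks old, housed singly in odour-proof containers and exposed for 90 min, with 3 libraries each. Each library is taken as 1 mouse, since the labels call the 3 of a group replicates without naming the animals. No group received octanal or cis-3-hexenol alone, so the response to each component cannot be told apart.

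Each olfactory sensory neuron expresses 1 of a large family of odorant receptors, and a receptor that binds an odorant opens a cyclic AMP-gated channel through the G protein Gnal and the adenylyl cyclase Adcy3. Active neurons phosphorylate ribosomal protein S6, so an antibody against phosphorylated S6 pulls down ribosomes of activated cells and with them the messenger RNA of the receptors that responded. Octanal is an aliphatic aldehyde and cis-3-hexenol is the alcohol of cut grass. Olfr2, the receptor long known as I7, is the textbook octanal receptor.

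The 15 libraries held 22704177 to 25287060 counts each, and levels are given in CPM, the count scaled to library size, and corrected for composition by TMM. Omp, the marker of mature olfactory neurons, was at 7022 to 9485 CPM in the O+C libraries, 7479 to 10092 CPM in the O&C libraries and 4205 to 4925 CPM in the Control libraries. 2 features set libraries apart from the rest of their group. Obp2a, an odorant binding protein of the nasal glands, was at 459, 162 and 134 CPM in O+C libraries 1 to 3, against 0.434, 111 and 2.14 CPM in O&C libraries 1 to 3. In the Control libraries it was at 0.162, 126 and 247 CPM. O&C 1 also held transcripts of olfactory bulb neurons: a list of 12 such genes, chosen after these values were seen, summed to 266 CPM there, against 17.9 to 27.6 CPM in the O+C libraries, 23.1 to 23.2 CPM in the other O&C libraries and 16.6 to 22.8 CPM in the Control libraries. In the A+D libraries, used below for 1 comparison, it was 54.8, 142.5 and 49.7 CPM. Values without these libraries are given beside the receptor results and beside lists that changed without them.

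No gene passed the test between O+C and O&C mice. With edgeR's quasi-likelihood test and Benjamini-Hochberg adjustment, 0 of 19229 genes had an adjusted p under 0.05, a share of 0%, and so 0 of the 867 intact odorant receptor genes tested passed. At an unadjusted p under 0.05 there were 766 genes (3.98%), of which 440 (2.29%) were higher and 326 (1.7%) were lower in O+C. DESeq2's Wald test on the same genes called 9, of which 3 were higher and 6 lower in O+C. With no filter on low counts edgeR called 204, led by odorant binding protein genes such as Obp1a, whose level differed widely among the O&C libraries. Olfactory bulb genes were also called there, such as Doc2g, at 93.7 CPM in O&C 1 but 0.820 and 0.223 CPM in O&C 2 and O&C 3. In 1137 genes (5.91%) every O+C library lay above every O&C library, and in 972 genes (5.05%) every O+C library lay below. A missed threshold does not show that the arrangements act alike, and the intervals say how large a difference could be. For 14560 genes (75.7%) the 95% confidence interval of the difference lay within 1 on the log2 scale, that is, within a 2-fold change either way, but this held for 314 receptors (36.2%).

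The odorant pair itself gave a large response against which this comparison can be read. With O+C and O&C pooled against Control, 126 of the 867 receptors had higher levels and 104 had lower levels at an adjusted p under 0.05, where 10.1% of all genes tested were called higher and 7.04% lower (17.1% in all). The higher count was 106 to 133 on leaving out any 1 library. The lower count was less stable, with 37 without Control 2 or Control 3, 54 when O+C 1 was left out, 60 when O&C 1 was and 63 when O&C 3 was. The split depends on scaling: on the receptors alone it was 147 higher and 21 lower with the median of all genes moved to 0.23, and on the mature neuron genes it was 93 higher and 591 lower with that median at -0.85. Against the same Control libraries, 99 receptors were called higher and 32 lower in O+C, beside 5.74% and 2.35% of all genes (8.09% in all), and 135 higher and 71 lower in O&C, beside 9.33% and 5.41% (14.7% in all). On leaving out any 1 library the lower counts were 3 (without O+C 1) to 21 in O+C and 18 (without O&C 1) to 56 in O&C. These counts share their Control libraries and are given side by side. With groups of the same size, the pooled fold change is independent of the O+C and O&C difference if these 2 groups vary equally. The p-values are not, since both tests use the same estimate of each gene's spread. A choice by adjusted p favours genes with a small estimate. The share of counts in intact receptors varied more in O&C (SD 0.0859 percentage points) than in O+C (0.0148), so this independence is not assured. The pooled contrast was used to choose the receptors whose difference is described next. From the receptors called higher in it, the 15 with the largest fold change over Control were taken. In bulk tissue, more active neurons of a type and more RNA per neuron cannot be told apart.

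Those 15 receptors were chosen for their rise, so their O+C and O&C libraries lay far above Control. In 13 of the 15 the O+C and O&C libraries overlapped each other. Olfr1364 was at 108, 153 and 103 CPM in O+C libraries, against 131, 121 and 154 CPM in O&C libraries and 9.46, 10.8 and 10.2 CPM in Control libraries. Olfr332 was at 101, 68.5 and 57.7 CPM in O+C libraries, 72.6, 112 and 110 CPM in O&C libraries and 5.50, 7.42 and 3.64 CPM in Control libraries. For both genes the O+C and O&C libraries overlapped and every one of them was above every Control library. The difference of O+C over O&C was -0.16 ± 0.14 (log2, SE) for Olfr1364 and -0.38 ± 0.30 for Olfr332. Olfr218 was nearly equal, with a difference of 0.03 and a 95% interval of -0.80 to 0.86.

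Of the 15, 14 had lower levels and 1 had a higher level in O+C, and for 12 the 95% interval included 0. Olfr1170 was at 9.90, 11.7 and 10.1 CPM in O+C libraries, against 14.1, 17.7 and 16.5 CPM in O&C libraries and 0.889, 1.04 and 1.45 CPM in Control libraries. Its O+C and O&C libraries did not overlap, and the difference was -0.61 (95% interval -0.98 to -0.24). Olfr1167, of the same receptor family, was at 4.91, 5.62 and 3.66 CPM in O+C libraries and 5.94, 9.30 and 7.08 CPM in O&C libraries, again without overlap, but its interval of -1.53 to 0.23 included 0. Olfr847 was at 7.10, 12.2 and 9.88 CPM in O+C libraries, against 9.58, 25.2 and 23.2 CPM in O&C libraries, with a difference of -0.99 (95% interval -1.76 to -0.22). O&C 1 lay among the O+C libraries, and O&C 2 and O&C 3 lay above them. Olfr1383 and Olfr509 are also among the 15, but their deposited counts were not whole in most libraries, so they share reads with another gene and their levels are uncertain. Others had fractional counts in fewer libraries. Those of Olfr1364 were whole in 8 libraries and those of Olfr1170 in 9.

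**Figure D1:**
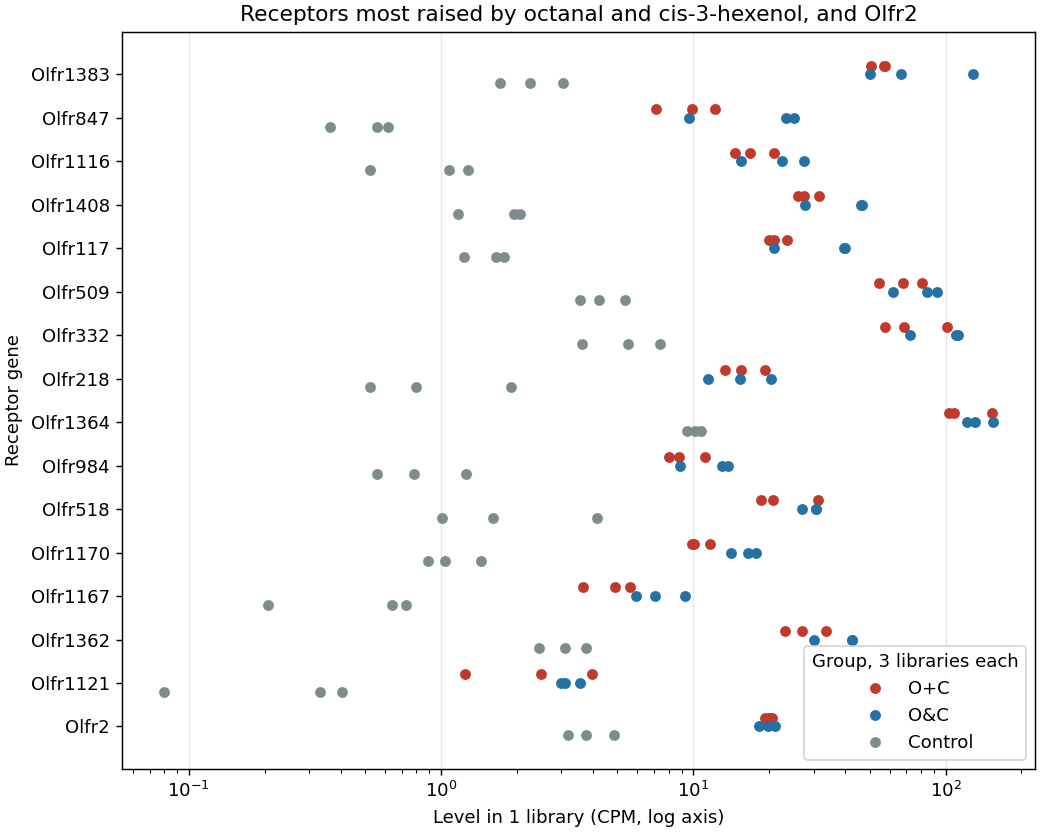
Level in each library (CPM, log axis) of the 15 receptors with the largest fold change of the odorant pair over Control, and of Olfr2, with the O+C, O&C and Control libraries as separate points (3 each). The O+C and O&C points lie far to the right of Control, and for Olfr1170 and Olfr1167 every O+C point lies left of every O&C point.

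Olfr2 had nearly the same level in both arrangements. It was at 19.9, 20.4 and 19.2 CPM in O+C libraries, 18.3, 19.9 and 21.2 CPM in O&C libraries and 3.19, 3.75 and 4.83 CPM in Control libraries. The O+C libraries lay inside the range of the O&C libraries, and both were above every Control library. The difference of O+C over O&C was 0.01 ± 0.15 (log2, SE) with a 95% interval of -0.32 to 0.33. Whether Olfr2 differs from the other raised receptors in this respect was not tested.

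Over all 126 receptors raised by the pair, levels were mostly somewhat lower with 1 paper. The log2 difference of O+C over O&C was negative in 109 of them and positive in 17, with a median of -0.39, an interquartile range of -0.55 to -0.15 and extremes of -1.85 and 0.61. Over all receptors tested the median was -0.00 with 437 of 867 negative, and over all 19229 genes it was also -0.00 with 9740 negative. The lean was not particular to receptors. Of 1813 other genes raised by the pair, 1440 were negative, with a median of -0.11. Of 1249 other genes lowered by the pair, 875 were positive, with a median of 0.08. Over all receptors tested, 8.77% had an unadjusted p under 0.05 in either direction, beside 3.98% of all genes. Among the 104 receptors lowered by the pair, chosen by the same contrast, it was 13.5%, with 12 higher and 2 lower in O+C. At that threshold, 35 of the 126 (27.8%) were lower and 0 were higher in O+C, beside 1.7% and 2.29% of all genes. In 25 the groups did not overlap with O+C lower, and in 0 with O+C higher, beside 5.05% and 5.91% of all genes. None of the 126 passed the adjusted threshold in edgeR, and DESeq2 called 3 of them, Olfr1404, Olfr1384 and Olfr317, all lower in O+C. The receptors are not independent of each other because they were measured in the same libraries.

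Sets of stronger response had close medians, but each set holds the next, so these medians are not separate values. Among 112 receptors raised over 2-fold the median was -0.41, among 63 raised over 4-fold it was -0.39, and among 18 raised over 8-fold it was -0.39. The 104 receptors lowered by the pair had a median of 0.08, with 56 positive and 48 negative, which became -0.03 when O&C 1 was left out and -0.01 when O+C 2 was, and the 637 receptors not called had a median of 0.09. Against Control, the median of the 126 was 1.76 in O+C and 2.24 in O&C on the log2 scale.

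The libraries of the O&C group were not alike in these receptors. Summed over the 126 receptors, the level was 2967, 2705 and 2409 CPM in O+C libraries 1 to 3, against 2600, 3712 and 3836 CPM in O&C libraries 1 to 3. The Control libraries summed to 659, 777 and 697 CPM. O&C 1 lay among the O+C libraries, and O&C 2 and O&C 3 lay above all of them, so the groups overlap. O&C 1 is the library with olfactory bulb transcripts. Without it the median of the 126 was -0.55, without O&C 2 or O&C 3 it was -0.30, and without O+C 3 it was -0.29. Without the libraries under 10 CPM of Obp2a it was -0.55; only O&C 2 then remains of its group, and it is assumed to vary like the other groups.

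The intact receptors together took 0.469%, 0.483% and 0.453% of the counts in O+C libraries, against 0.423%, 0.574% and 0.570% in O&C libraries and 0.309%, 0.365% and 0.350% in Control libraries. The O+C share was lower by 0.0543 percentage points in the difference of the means, and an exact two-sided permutation test over the 3 libraries of each group gave p = 0.4, where the smallest p it allows is 0.1. Without O&C 1 the difference was -0.104 percentage points (exact permutation p = 0.1), and without O&C 2 or O&C 3 it was -0.0283 or -0.0306 (exact permutation p = 0.8 for both). Per 100 counts of 22 mature neuron genes, the receptors had 20.9, 23.8 and 23.3 counts in O+C libraries and 21.7, 23.7 and 22.8 counts in O&C libraries. Set against the mature neurons, then, the receptor totals of the groups overlapped fully. The mature neuron genes themselves had a median difference of -0.19, with 20 of 22 negative (-0.31 without O&C 1 and -0.10 without O&C 3). Scaled on those genes, the median of the 126 raised receptors was -0.22 and that of all genes 0.16, and 88 of the 126 were negative.

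**Figure D2:**
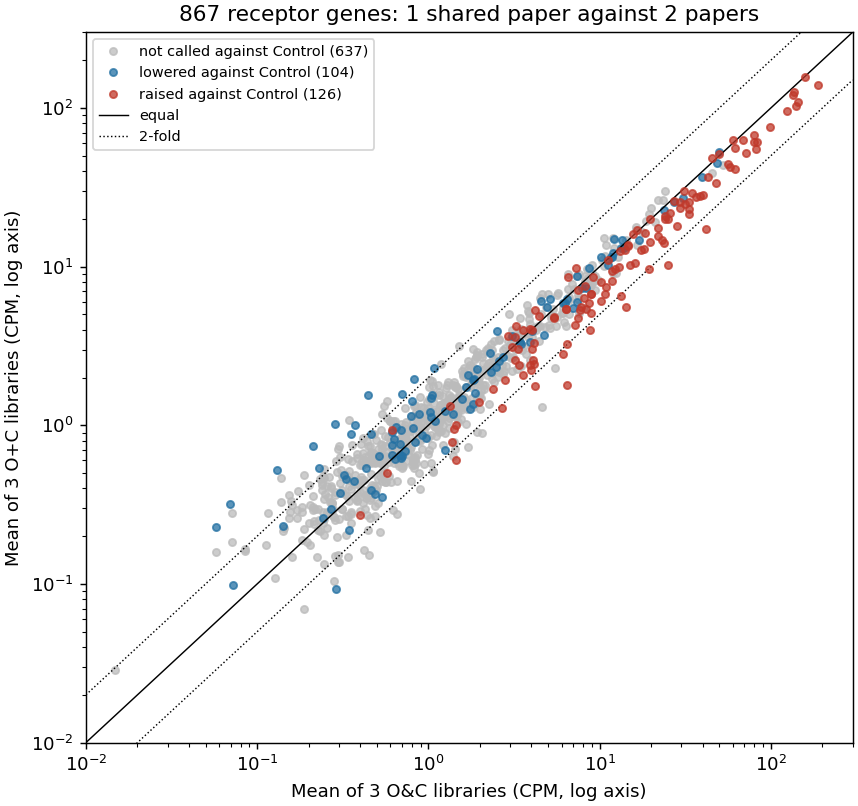
Mean level of each of the 867 receptor genes in the 3 O+C libraries (vertical axis) against that in the 3 O&C libraries (horizontal axis), both in CPM on log axes, coloured by whether the gene was called higher, called lower or not called with the odorant pair against Control. The 126 raised receptors lie along and mostly just below the line of equal levels, and few receptors lie beyond the dotted lines of a 2-fold difference at levels above a few CPM.

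Of the 126 raised receptors, 121 had an assigned family. They fell into 50 of 207 receptor families that had a member tested, and the sign of the difference was not the same in all of these families. The MOR256 family had 19 of its 43 tested members raised, 17 of them with a negative difference and a median of -0.42. The MOR267 family had 8 of 14 raised, 7 of them negative, and in MOR111 all 5 raised members of 9 tested were negative. In MOR103, the family of Olfr2, 3 of the 4 raised members had a positive difference, and in MOR233 2 of 3 did, with a median of 0.38. Overall 14.5% of the receptors tested were raised. Class I receptors, the group related to those of fish, had 4 raised members, all negative, and their 89 tested members had a median of 0.22, while the 760 of class II had a median of -0.02. Counts were whole in most libraries for 95 of the 126, and these had a median of -0.42, against -0.34 for the 31 that share reads.

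At an unadjusted p under 0.05 in edgeR, 50 of the 867 receptors were lower and 26 were higher in O+C, beside 1.7% and 2.29% of all genes. The 5 receptors with the smallest p in each direction were named by rule. edgeR called none of them, and DESeq2 called 5: Olfr1404, Olfr1384, Olfr317 and Olfr16, lower in O+C, and Olfr1030, higher in O+C. Olfr1404 had the smallest, at 9.73, 12.4 and 8.64 CPM in O+C libraries, against 19.6, 30.5 and 25.5 CPM in O&C libraries and 2.51, 2.95 and 2.60 CPM in Control libraries. Every O+C library lay between the O&C and the Control libraries, with no overlap. The difference was -1.30 ± 0.21 (log2, SE; 95% interval -1.74 to -0.86), and its adjusted p was 0.152 in edgeR. DESeq2 gave an adjusted p of 3.99e-05, and edgeR with TMM factors from the receptors gave 0.0176.

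Olfr1384 was lower in O+C by 1.27 on the log2 scale, at 18.0, 19.5 and 14.5 CPM in O+C libraries and 26.4, 56.3 and 42.6 CPM in O&C libraries, without overlap (adjusted p = 0.556 in edgeR and 0.0013 in DESeq2). It shares reads with another gene. Without O&C 1, Olfr1384 and Olfr1404 were the 2 genes called, with differences of -1.53 and -1.46 and an adjusted p of 0.0346 each. Olfr317 was at 2.63, 0.964 and 1.79 CPM in O+C libraries, against 3.30, 9.43 and 6.68 CPM in O&C libraries. Olfr16, the lyral receptor MOR23, was at 1.51, 2.81 and 2.61 CPM in O+C libraries, 4.03, 6.76 and 5.61 CPM in O&C libraries and 2.14, 2.59 and 3.26 CPM in Control libraries, so the O+C and Control libraries overlapped. Olfr247 (-1.81) also had lower levels, and shares reads.

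In the other direction Olfr1030 was at 1.25, 1.57 and 1.83 CPM in O+C libraries, against 0.607, 0.369 and 0.356 CPM in O&C libraries and 1.62, 1.71 and 2.56 CPM in Control libraries. The O+C and Control libraries overlapped and the O&C libraries lay below both. The class I receptor Olfr622 was at 0.904, 1.16 and 0.972 CPM in O+C libraries, 0.217, 0.410 and 0.223 CPM in O&C libraries and 0.606, 1.52 and 1.24 CPM in Control libraries. Olfr469, Olfr1357 and Olfr1377 had differences of 1.25, 1.17 and 1.65. All 5 were at low levels, and their adjusted p in edgeR was 0.622 or more. DESeq2 gave Olfr1030 an adjusted p of 0.0447, the same value as for Olfr317 and Olfr16.

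**Figure D3:**
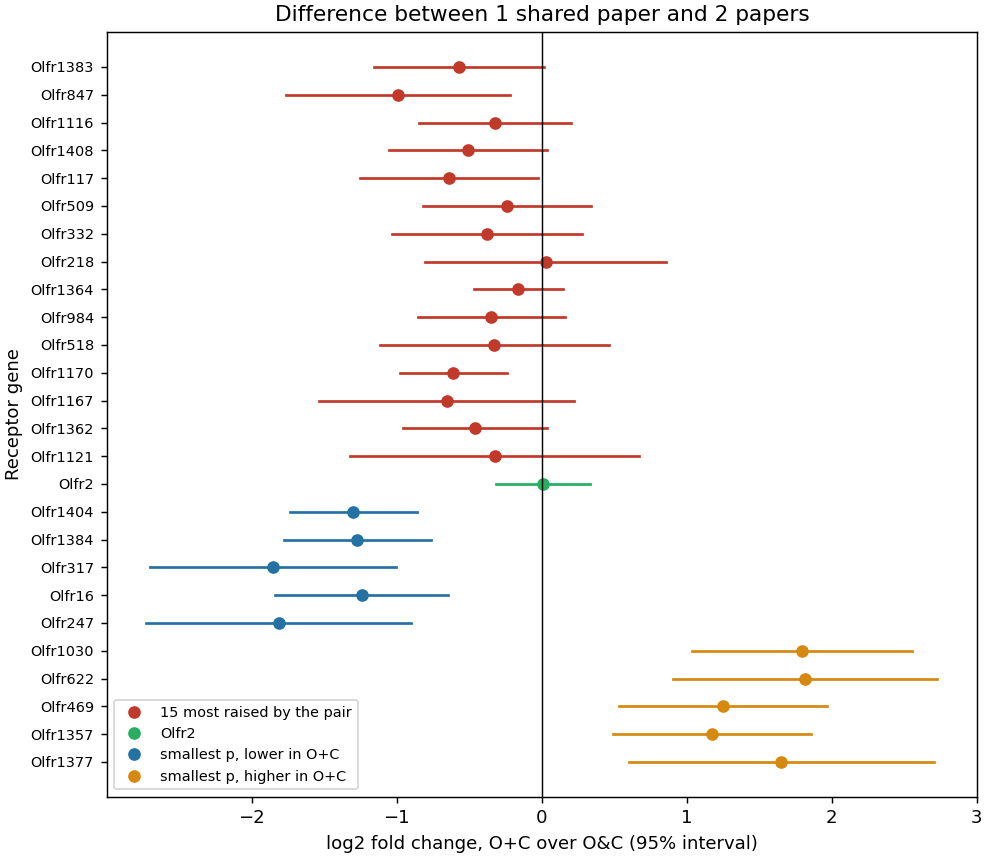
Difference between 1 shared paper and 2 papers (log2 fold change, O+C over O&C, horizontal axis) with its 95% interval for the 15 receptors most raised by the pair, Olfr2 and the 10 receptors with the smallest p. Olfr2 sits at 0.01, most of the 15 lie slightly left of 0, and Olfr1404 lies at -1.30 with its whole interval below 0.

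Of the genes that are no receptor, edgeR called none and DESeq2 called 4, Gm10591, Pgk1-rs7, C230071H17Rik (adjusted p = 0.0441) and Myh14 (adjusted p = 0.0447). Without the libraries under 10 CPM of Obp2a edgeR called Gm49387, and without O+C 1 it called Tmem150cos, at -2.86. Tmem150cos is named as antisense to another gene, and since the strand setting is not given, their reads cannot be told apart. C230071H17Rik, an uncharacterised transcript, was at 0.258, 0.602 and 0.895 CPM in O+C libraries and had no count in any O&C library. Against a floor of 3 counts over the O&C group that is at least 13.9-fold higher. Myh14, a non-muscle myosin heavy chain, was at 6.93, 12.3 and 11.3 CPM in O+C libraries, against 17.6, 22.0 and 15.4 CPM in O&C libraries (-0.85, 95% interval -1.26 to -0.44). Gpr37l1, a receptor of glia, was at 1.25, 1.77 and 1.05 CPM in O+C libraries and 4.12, 3.24 and 2.49 CPM in O&C libraries. Dchs1, a large cadherin, was at 2.32, 1.85 and 2.10 CPM in O+C libraries and 0.824, 1.23 and 0.935 CPM in O&C libraries. In each of these 4 genes the O+C and O&C libraries did not overlap.

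Immediate early genes, which neurons transcribe within minutes of activity, were tested as a list of 26. None was called between O+C and O&C. Their median difference was -0.04 (0.17 without O&C 1 and -0.14 without O&C 2), with 11 positive and 15 negative. With the pair against Control 10 were called higher and 1 lower, where 10.1% and 7.04% of all genes were. Nr4a1 and Dusp1 were the list members with the smallest p, on opposite sides of 0. The promoters of these 2 genes, of Olfr1404 and of Olfr1384 are shown because these are the 2 early genes and the 2 receptors with the smallest p: the 250 bases before the RefSeq start of each gene (GRCm38.p6), with capitals marking TGACG or its reverse complement CGTCA, the core of the cyclic AMP response element, and overlapping matches that join into TGACGTCA written as 1 run.

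Nr4a1 (chr15:101266596-101266845, plus strand): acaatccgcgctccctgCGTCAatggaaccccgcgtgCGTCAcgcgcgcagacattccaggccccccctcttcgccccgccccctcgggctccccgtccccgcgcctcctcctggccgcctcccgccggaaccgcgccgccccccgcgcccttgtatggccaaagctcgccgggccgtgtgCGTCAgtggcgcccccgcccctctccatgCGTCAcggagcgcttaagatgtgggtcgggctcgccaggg
Dusp1 (chr17:26508473-26508722, minus strand): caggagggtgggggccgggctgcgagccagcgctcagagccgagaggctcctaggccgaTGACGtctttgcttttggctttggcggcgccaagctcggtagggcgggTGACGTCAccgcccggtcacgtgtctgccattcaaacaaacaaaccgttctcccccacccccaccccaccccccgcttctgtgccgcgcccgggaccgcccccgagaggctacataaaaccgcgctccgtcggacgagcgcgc
Olfr1404 (chr1:173215357-173215606, plus strand): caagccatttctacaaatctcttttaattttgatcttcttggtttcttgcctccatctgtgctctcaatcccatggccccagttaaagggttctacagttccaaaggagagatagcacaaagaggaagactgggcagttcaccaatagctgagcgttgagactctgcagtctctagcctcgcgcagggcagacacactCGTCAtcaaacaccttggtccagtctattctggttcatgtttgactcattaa
Olfr1384 (chr11:49513368-49513617, plus strand): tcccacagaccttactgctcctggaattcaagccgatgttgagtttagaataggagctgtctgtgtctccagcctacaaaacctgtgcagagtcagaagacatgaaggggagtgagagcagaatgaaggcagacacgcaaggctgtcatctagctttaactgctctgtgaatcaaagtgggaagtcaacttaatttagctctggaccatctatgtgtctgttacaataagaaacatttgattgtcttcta

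The element was found 4 times before Nr4a1, 3 times before Dusp1, where TGACG and CGTCA overlap as TGACGTCA, 1 time before Olfr1404 and 0 times before Olfr1384. TGACG on either strand occurred in 17.8% of the 32851 promoters in the RefSeq table and TGACGTCA in 1.55%. Among 945 intact receptor promoters 40 (4.23%) held TGACG. A match is a description of the letters and not evidence of binding.

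Nr4a1, a nuclear receptor of the activity response, was at 211, 229 and 293 CPM in O+C libraries, against 181, 164 and 209 CPM in O&C libraries and 43.6, 37.9 and 31.1 CPM in Control libraries. Every O+C library was above every O&C library, and both groups were above all Control libraries. The difference of O+C over O&C was 0.41 ± 0.15 (log2, SE), which was not called. Dusp1, a phosphatase that switches off MAP kinases, lay the other way, at 213, 184 and 198 CPM in O+C libraries, against 264, 231 and 271 CPM in O&C libraries and 145, 162 and 128 CPM in Control libraries. Its difference was -0.36 ± 0.13 without overlap, and it was not called either. Npas4, a neuron-restricted activity factor, was at 0.0861, 0.361 and 1.01 CPM in O+C libraries and 1.39, 1.64 and 0.890 CPM in O&C libraries, with overlap.

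The arrangement effect on Nr4a1 differed from that of acetophenone and decanal. Among 19229 genes, 2 (0.0104%) passed the test of (O+C minus O&C) minus (A+D minus A&D), Nr4a1 and the receptor Olfr1426. For Nr4a1 the A+D libraries were at 38.5, 33.5 and 41.0 CPM and the A&D libraries at 78.8, 90.1 and 72.3 CPM, so every A+D library was below every A&D library. The difference between the effects was 1.50 ± 0.21 (log2, SE; adjusted p = 0.0115 in edgeR). Without A&D 2 the adjusted p was 0.0712, without O&C 1 it was 0.053, and no gene was called with TMM factors from the receptors. Without A+D 2, the A+D library highest in bulb transcripts, the difference was 1.42 for Nr4a1 and 1.79 for Olfr1426, both called. At an unadjusted p under 0.05, 517 genes (2.69%) differed. Olfr1426 carried its effect in the other pair: in this one it was at 5.60, 7.23 and 6.53 CPM in O+C libraries and 5.81, 6.39 and 7.61 CPM in O&C libraries. It shares reads with another gene.

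**Figure D4:**
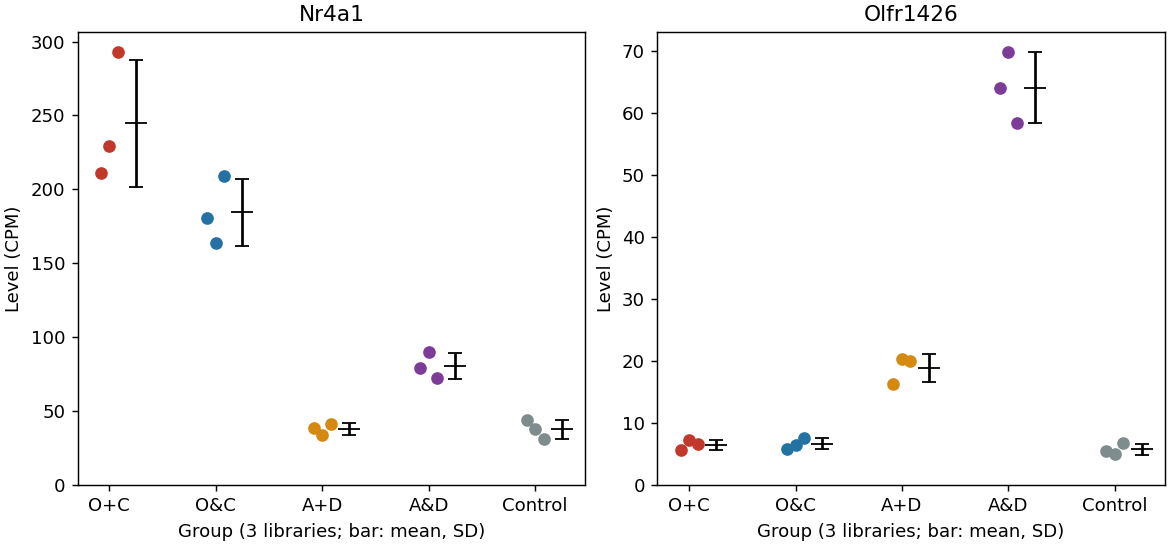
Level of Nr4a1 and Olfr1426 in each library (CPM) in the O+C, O&C, A+D, A&D and Control groups, with the mean and SD of 3 libraries beside the points. Nr4a1 is higher in O+C than in O&C and lower in A+D than in A&D, and Olfr1426 differs between A+D and A&D while its O+C and O&C levels lie together.

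In the lists of genes for the cell types and pathways of the tissue, edgeR called no member between O+C and O&C. With no filter on low counts it called 11 of the 15 gland secretion genes, Obp1a, Obp1b and Obp2a among them. In the 13 activity-linked genes of axon sorting and odour response, 11 were called higher with the pair against Control, beside 10.1% of all genes. Between O+C and O&C 10 of them had a negative difference, with a median of -0.15 that was -0.28 without O&C 1 and -0.04 without O&C 3. Kirrel2, an axon-sorting adhesion molecule, was at 715, 459 and 524 CPM in O+C libraries, against 500, 685 and 850 CPM in O&C libraries, overlapping. Ildr2 had 4.61, 2.77 and 2.26 CPM in O+C libraries and 4.08, 5.33 and 6.14 CPM in O&C libraries, also overlapping. The 21 genes of olfactory signal transduction, the G protein, cyclase, channels and receptor chaperones, had a median of -0.14 with 18 negative (-0.24 without O&C 1). Cnga2, the cyclic nucleotide-gated channel, was at 631, 592 and 555 CPM in O+C libraries, against 566, 777 and 807 CPM in O&C libraries, overlapping. Scaled on the mature neuron genes, the median of the signal transduction list was 0.02 and that of the immediate early genes 0.12.

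The 7 ventral zone neuron genes had a median of 0.21 with 5 positive and 2 negative, and the 4 dorsal zone neuron genes had one of -0.01. Lists of cell types other than neurons had medians of -0.11 to 0.16, apart from those of blood and gland secretions. The 14 genes of globose basal cells and progenitors had a median of 0.10 with 12 positive, led by the proliferation marker Mki67 at 13.2, 11.3 and 21.1 CPM in O+C libraries and 6.29, 11.3 and 7.03 CPM in O&C libraries. The 7 red blood cell genes were all positive with a median of 0.41. Slc4a1, the red cell anion exchanger, was at 31.9, 34.7 and 28.0 CPM in O+C libraries, against 21.6, 18.2 and 22.0 CPM in O&C libraries. The list as a whole overlapped, at 13664, 20544 and 16473 CPM in O+C libraries and 14398, 10195 and 14126 CPM in O&C libraries. The 15 sustentacular genes had a median of 0.06 (-0.09 without the libraries under 10 CPM of Obp2a) and the 10 horizontal basal cell genes a median of -0.08 (0.01 without O&C 1). The gland list of 15 had a median of 1.90 with wide intervals, with 11 members positive and 4 negative. The median was 7.61 without O&C 2, 1.28 without O+C 2 and 0.33 without the libraries under 10 CPM of Obp2a. Obp1a was at 182, 16.9 and 57.4 CPM in O+C libraries and 0.173, 35.7 and 0.178 CPM in O&C libraries. Bpifb3 lay the other way, at 1991, 2008 and 1902 CPM in O+C libraries and 2555, 2798 and 2450 CPM in O&C libraries. The list as a whole summed to 4954, 4370 and 4875 CPM in O+C libraries and 5127, 5873 and 4368 CPM in O&C libraries, overlapping. In a fit with Obp2a under 10 CPM as a term, no gene was called, and the median of the 126 raised receptors was -0.50 with 117 of them negative. The part of blood RNA in the differences above was not tested.

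**Figure D5:**
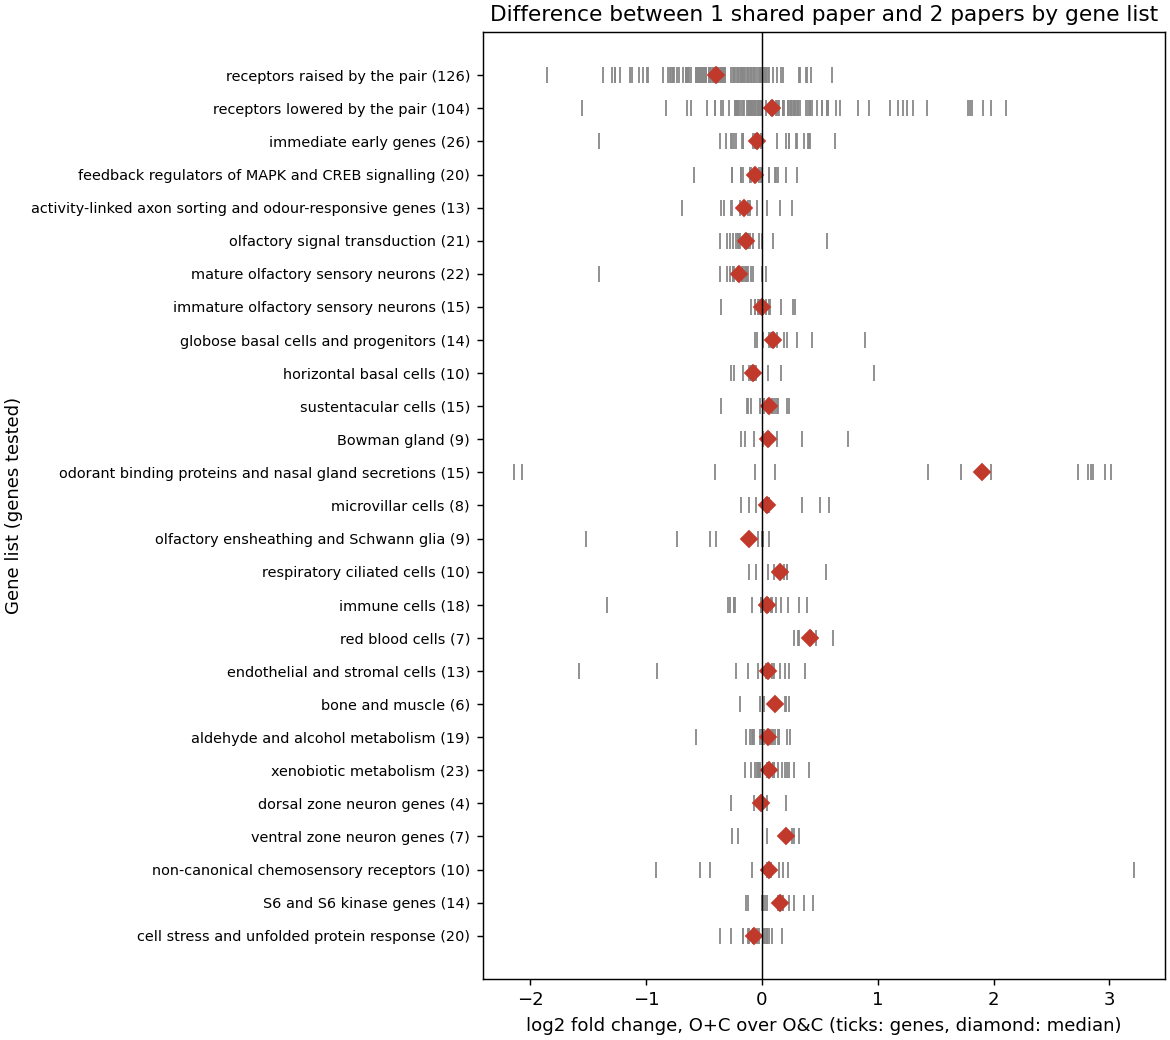
Difference between 1 shared paper and 2 papers (log2 fold change, O+C over O&C) for the receptors raised or lowered by the pair and for each gene list, with a tick per gene and a diamond at the median. The raised receptors have a median of -0.39, the mature neuron list one of -0.19, and the gland list the widest spread.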

How the data were processed

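RNA bound to ribosomes with phosphorylated S6 was sequenced from olfactory epithelium, 15 libraries in 5 groups of 3. The authors deposited expected counts per gene, not normalized. STAR 2.7.10b, Salmon 1.10.1, R 4.4.2 and GRCm39 were used, per the submitters' processing notes; the annotation and strand setting are not given in the sources used here. Values were rounded to whole numbers; 86.0% to 87.9% per library were already whole within 0.0005, and a gene with fractional values in more than 7 libraries was taken to share reads with another. Symbols matched 52029 of 57010 identifiers, and 1108 were intact odorant receptors. edgeR 4.0.16 in R 4.3.3 (TMM scaling, filterByExpr with a minimum count of 10, robust quasi-likelihood F test) was fitted to all 15 libraries with a mean per group, and Benjamini-Hochberg adjustment ran over 19229 genes with a threshold of 0.05. The biological coefficient of variation was 0.183. CPM used the scaled library sizes. The main edgeR p-values set a difference of group means against the spread among libraries within groups. That spread was estimated from all 15 libraries and moderated across genes. The comparisons were O+C against O&C, both pooled and each against Control, and the difference from the other odorant pair. Named genes were the called ones with the largest changes or, where fewer than 5 were called, the 5 with the smallest p in each direction, the 15 receptors with the largest pooled change over Control, Olfr2, and up to 4 members per list by p. The members and lists were chosen with earlier results of these data known. Promoter sequences are from RefSeq, GRCm38.p6. Alternatives were size factors (RLE), DESeq2 1.42.0, 2 other filters, a replicate block and scaling on receptors or mature neuron genes. Further ones were Obp2a under 10 CPM as a term, and leaving out libraries. Replicate numbers did not pair libraries: same-numbered O+C and O&C libraries correlated at -0.0007, -0.043 and -0.097 in their deviations from the group means.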

Additional observations from a re-analysis of the deposited data

Results flagged for a closer look

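2 genes differed between the odorant pairs in the effect of the paper arrangement, by a test of the difference itself in edgeR across all genes. Nr4a1 had a difference between the effects of 1.50 ± 0.21 (log2, SE), with O+C above O&C in every library and A+D below A&D in every library. Olfr1426 had a difference of 1.73 ± 0.22 with an adjusted p of 0.0051, from an effect of -1.77 in the acetophenone and decanal pair and -0.03 in the octanal and cis-3-hexenol pair; its counts share reads with another gene. The adjusted p of Nr4a1 was 0.0712 without A&D 2, 0.053 without O&C 1, 0.0601 with the replicate block and 0.17 with scaling on the receptors. The adjusted p of Olfr1426 was 0.17 under the last of these. Without the libraries under 10 CPM of Obp2a, 1 O&C library was left, so no adjusted p is given for that fit.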

How the results depend on the processing

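The count of 0 genes called between O+C and O&C became 9 with DESeq2 (5 receptors) and 204 with no filter on low counts (16 receptors). It became 1 with scaling on the receptors (1 receptor). Leaving out each library gave 0 to 2 genes and 0 to 2 receptors. The count stayed 0 with the replicate block. The pooled count against Control of 3292 (230 receptors) became 15634 (684) with mature neuron scaling, which moved the median of all genes by -0.85, and 2045 without the libraries lacking gland transcripts; leaving out each library gave 1854 to 2994 (143 to 214). O+C against Control (1555, 131 receptors) became 13233 (542) with mature neuron scaling and 2618 with only its own groups, and 542 to 1206 (84 to 109) on leaving out each library. O&C against Control (2834, 206) became 15211 (666), 4664 and, without the libraries lacking gland transcripts, 802 (109), and 1274 to 2284 (128 to 168). The difference between the pairs, 2 genes and 1 receptor, became 8 and 6 with DESeq2 and 204 and 22 with no filter. It became 1 gene with the replicate block, 0 and 0 with receptor scaling and 4 and 3 with mature neuron scaling. On leaving out each library it was 1 to 4 (1 to 3). Leaving out the libraries under 10 CPM of Obp2a, a setting chosen after seeing the data, left 1 O&C library. The counts called in that fit are not set beside these. With mature neuron scaling Olfr1426 went to -0.57 in O+C over Control and -0.72 in O&C over Control. The cause was not tested. The median of the 126 raised receptors kept its sign in all these, from -0.22 with mature neuron scaling to -0.55 without O&C 1. Same-numbered libraries did not deviate together, so the numbers were not taken to pair them. Counts limit the receptors at low levels, whose intervals are the widest.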
